A study of Mus musculus with 8 samples.

Results

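The genes described here encode the soluble pattern-recognition lectins of the collectin and ficolin families and the proteases that work with them. They are Mbl1, Mbl2, Sftpa1, Sftpd, Colec10, Colec11, Fcna, Fcnb, Masp1 and Masp2, and all 10 were found by symbol among the 33212 genes of the count table. The family was chosen by the higher values of Mbl2 and Sftpa1 in the knockout livers of these same samples, so the values of these 2 genes are a description, without a test. RNA was sequenced from livers of 4 Nnmt LKO mice, in which Alb-Cre deletes a floxed Nnmt in hepatocytes, and of 4 control mice, which the labels call WT and the study describes as Nnmt flox/flox. The strain was C57BL/6, and by the study's methods all mice were males that received, for 8 weeks, a diet lacking methionine and choline (MCD), a model of liver damage. Their age is not given in the sources used here. The controls carry no Cre, so an effect of Alb-Cre itself cannot be told apart from that of the deletion, and livers on a normal diet were not analysed here.

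Collectins carry a collagen-like tail and a calcium-dependent lectin domain that binds sugars on microbes and damaged cells, while ficolins carry a fibrinogen-like domain in its place. Mannose-binding lectins, ficolins and the collectins CL-L1 and CL-K1 circulate with MASP proteases, which cut C4 and C2 once the lectin has bound, and so start the lectin pathway of complement. The liver is the main source of most of these proteins in blood. Surfactant proteins A and D are collectins best known from lung epithelium, where they bind microbes at the air surface.

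Total counts per library lay between 75020072 and 87934362, so that 3 counts were at most 0.04 CPM (counts scaled to the library's total, per 1e6). Nnmt, the targeted gene, was at 31.8, 44.8, 68.9 and 83 normalized CPM in Nnmt LKO libraries a to d and at 112, 224, 134 and 84.9 CPM in control libraries a to d. The groups did not overlap, which in an exact two-sided permutation test gives p = 0.0286, the lowest value possible for 4 against 4 libraries, but the highest Nnmt LKO library lay just under the lowest control library. The log2 fold change of Nnmt was -1.28 ± 0.33 (SE, adjusted p = 0.123 in edgeR's quasi-likelihood test and 0.00458 in DESeq2's). It was -1.08 without Nnmt LKO library a, -0.94 without control library b and -1.52 without Nnmt LKO library d. Each p-value here takes the library, 1 mouse each, as the unit, and those of edgeR and DESeq2 use a variance partly shared across genes. Library a of the Nnmt LKO mice had a TMM scaling factor of 1.21, against 0.952 to 0.977 in the other 3, and values that rest on it are also given without it. The labels give no batch.

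The upstream sequences of Mbl2, of its paralogue Mbl1 and of Sftpa1 are shown because Mbl2 and Sftpa1 were far higher in Nnmt LKO livers while Mbl1 was not. Each is the 250 bases before the start of transcription in RefSeq, written 5′ to 3′ on the gene's own strand, which is the plus strand of GRCm38.p6 for all 3. Mbl2 lies on chromosome 19 (window chr19:30232678-30232927), and Mbl1 (window chr14:41151206-41151455) and Sftpa1 (window chr14:41131538-41131787) on chromosome 14. Capitals mark a stretch of 45 bases that Mbl1 and Mbl2 share, and in Sftpa1 the letters of a TATA box (TATAAA) and of an NKX2-1 core (CAAGTG, here read on the other strand).
Mbl2: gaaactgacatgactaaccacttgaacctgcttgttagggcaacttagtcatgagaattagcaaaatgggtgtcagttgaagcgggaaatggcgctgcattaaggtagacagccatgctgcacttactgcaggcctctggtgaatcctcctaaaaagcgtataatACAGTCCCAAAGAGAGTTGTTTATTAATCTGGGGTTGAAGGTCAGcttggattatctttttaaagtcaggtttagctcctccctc
Mbl1: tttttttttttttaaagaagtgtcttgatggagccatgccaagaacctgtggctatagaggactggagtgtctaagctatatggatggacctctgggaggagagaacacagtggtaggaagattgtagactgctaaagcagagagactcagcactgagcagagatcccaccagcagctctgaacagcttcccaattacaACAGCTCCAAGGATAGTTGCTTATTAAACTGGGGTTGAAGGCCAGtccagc
Sftpa1: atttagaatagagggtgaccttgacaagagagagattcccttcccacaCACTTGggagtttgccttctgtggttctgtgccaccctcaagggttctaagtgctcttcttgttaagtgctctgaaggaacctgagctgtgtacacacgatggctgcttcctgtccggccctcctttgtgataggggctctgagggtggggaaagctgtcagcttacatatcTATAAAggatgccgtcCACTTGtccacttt

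The 45 bases shared by Mbl1 and Mbl2 were identical at 38 positions (84.4%), without a gap. They ran from position -85 to -41 in Mbl2 and from -51 to -7 in Mbl1, where -1 is the base before the start. The longest identical run in them, CTGGGGTTGAAGG, has 13 bases. It was found, on either strand, in 3 of 32851 such windows of all genes (0.00913%), those of Mbl1, Mbl2 and Slc25a53. The run was picked from the windows of Mbl1 and Mbl2, so both hold it by definition and nothing is read from this share. The part of the shared stretch in the values of either gene was not tested. Neither window has more than 8 bases in a row in common with that of Sftpa1 on the same strand.

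Of 7 short motifs searched on both strands, the window of Mbl2 held a FOXA core (TGTTTA) at -68 and the nuclear receptor hexamer AGGTCA at -47. Both lay inside the shared stretch, without overlap, at places where Mbl1 differs and reads TGCTTA and AGGCCA. The window of Mbl2 also held CAAGTG at -232. The window of Sftpa1 held TATAAA at -30, CAAGTG at -202 and at -14, and AGGTCA at -235. Such letters are common, as 12% of all windows held TGTTTA, 14% AGGTCA, 11.6% CAAGTG and 12.4% TATAAA. The window of Mbl1 held none of the 7, which also included GTTAAT (6.43% of windows), TTCNNNGAA (7.02%) and TGATGNAA (3.45%). That says only that these letters are not in this window. The table of upstream sequences covered 7 of the 10 genes, and Colec10, Sftpd and Masp1 are named only.

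Mbl2 (ENSMUSG00000024863, chromosome 19, 30232942 to 30239687 of GRCm38, like all gene positions here, plus strand) encodes mannose-binding lectin C, a soluble lectin that binds mannose-rich sugars. Its counts were 826, 505, 920 and 600 in control libraries a to d and 4692, 5155, 6567 and 5763 in Nnmt LKO libraries a to d. After scaling, it was at 9.96, 6.67, 10.6 and 7.14 CPM in control livers. In Nnmt LKO livers it was at 51.3, 63.9, 78.4 and 80.4 CPM. Each Nnmt LKO library lay above each control library, and the lowest of them was 4.84 times the highest control. The means were 8.59 ± 1.98 CPM and 68.5 ± 13.6 CPM (SD, n = 4 each), a ratio of 7.97. The log2 fold change of 2.99 ± 0.20 (SE) was 3.11 without Nnmt LKO library a. In bulk liver, more RNA per cell and more cells of the type that makes a transcript cannot be told apart, here and in all that follows.

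Mbl1 (ENSMUSG00000037780, chromosome 14, 41151458 to 41159601, plus strand) encodes mannose-binding lectin A, the other mouse mannose-binding lectin. It was at 148, 176, 144 and 132 CPM in control libraries a to d. In Nnmt LKO libraries a to d it was at 84.6, 134, 122 and 138 CPM. The groups overlapped, with libraries b and d of the Nnmt LKO mice above the lowest control, and library a well below all others. The log2 fold change was -0.33 ± 0.16 (SE, adjusted p = 0.425 by edgeR), and -0.20 without Nnmt LKO library a. The summed level of 8 hepatocyte markers was also lowest in that library, with 64973 CPM, while libraries b to d had 102540 to 115860 CPM. Most of this sum was Alb in every library, at 48513 CPM in Nnmt LKO library a. The part of these markers in the level of Mbl1 was not tested. The transcripts annotated for Mbl1 and Mbl2 have no run of 50 bases in common with each other or with any other annotated gene on either strand, so reads of these paralogues can be told apart.

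Set per kilobase of exon, Mbl1 was at 95.8 ± 11.9 and Mbl2 at 7.89 ± 1.82 CPM per kb in control livers (SD, n = 4). In Nnmt LKO livers Mbl1 was at 76.2 ± 15.5 and Mbl2 at 62.9 ± 12.5 CPM per kb. Mbl2 made up 5.17% to 9.58% of the level of both genes in the control libraries and 40.7% to 48.1% in the Nnmt LKO libraries. The sum of both levels was 104 ± 11.4 CPM per kb in control and 139 ± 26.5 CPM per kb in Nnmt LKO livers. This sum overlapped between the groups, since Nnmt LKO library a, at 101, lay among the controls (90.9 to 119), while the other 3 were between 144 and 162.

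**Figure D1:**
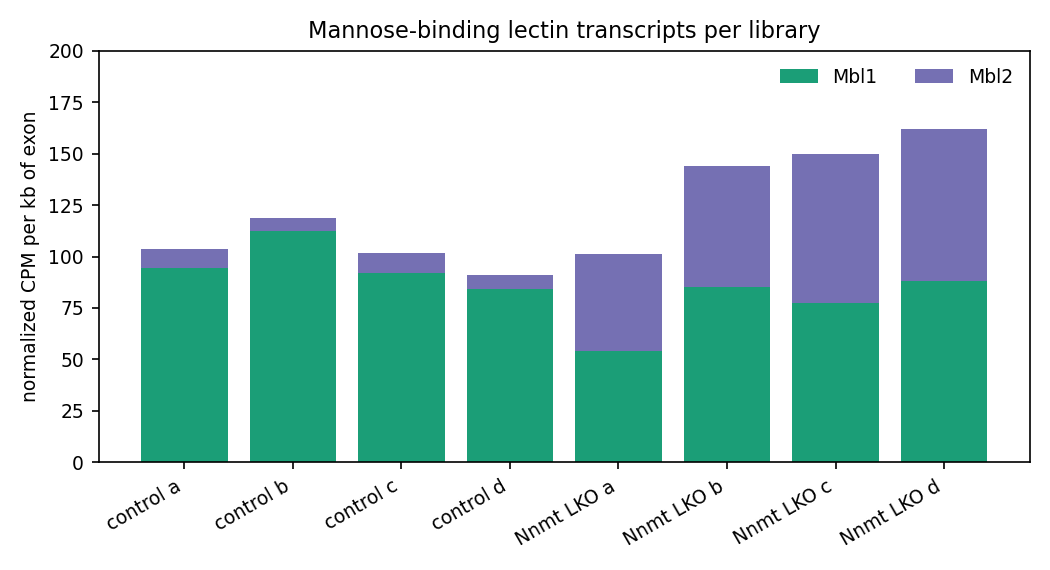
Level of Mbl1 (lower part of each bar) and Mbl2 (upper part) in each of the 8 liver libraries, in normalized CPM per kb of exon, from 0. The Mbl2 part is 5.17% to 9.58% of the bar in the control libraries and 40.7% to 48.1% in the Nnmt LKO libraries, and the bar of Nnmt LKO library a is as high as those of the controls.

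Sftpa1 (ENSMUSG00000021789, chromosome 14, 41131782 to 41136452, plus strand) encodes surfactant protein A. It had low counts, 57, 47, 42 and 33 in control libraries a to d and 229, 239, 213 and 260 in Nnmt LKO libraries a to d. This corresponded to 0.688, 0.621, 0.484 and 0.392 CPM in control and to 2.51, 2.96, 2.54 and 3.63 CPM in Nnmt LKO livers. Again the groups did not overlap. The means were 0.546 ± 0.133 and 2.91 ± 0.521 CPM (SD, n = 4 each), and the log2 fold change was 2.41 ± 0.26 (SE), or 2.48 without Nnmt LKO library a.

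Sftpd (ENSMUSG00000021795, chromosome 14, 41172214 to 41185149, minus strand) encodes surfactant protein D, which binds microbial sugars. It was at 1.27, 1.57, 2.32 and 1.57 CPM in control libraries a to d. In Nnmt LKO libraries a to d it was at 7.55, 3.09, 2.15 and 4.12 CPM. Library c of the Nnmt LKO mice lay below the highest control, so the groups overlapped, and library a was the highest by far. The log2 fold change was 1.33 ± 0.36 (SE, adjusted p = 0.141 by edgeR), with the unadjusted value under 0.05. It was 0.89 (adjusted p = 0.19) without Nnmt LKO library a. DESeq2's Wald test gave it an adjusted p of 0.0123, so the call for Sftpd depends on the test. The summed level of 6 cholangiocyte markers was 285, 104, 90.7 and 180 CPM in Nnmt LKO libraries a to d and 52, 62.9, 171 and 90.8 CPM in control libraries a to d. Most of this sum was Spp1 in every library, from 34.8 CPM in control library a to 243 CPM in Nnmt LKO library a. In both groups the libraries highest and lowest in Sftpd were also those highest and lowest in these bile duct genes, whose part in the level of Sftpd was not tested.

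As Sftpa1 and Sftpd are known from lung, a list of 8 other genes of lung epithelium was read in the same libraries. Sftpb, Nkx2-1 and Lamp3, of which the lung factor Nkx2-1 is among the defining genes, had 0 counts in all 8 libraries. Scgb1a1 (181 to 303 counts), Napsa (216 to 598 counts) and Ager (20 to 40 counts) were detected in all 8. Sftpc (0 to 19 counts) and Scgb3a2 (0 to 17 counts) were detected in some. Of the 4 genes with enough counts to be tested, 1 was higher and 3 were lower in Nnmt LKO livers, none was called by edgeR or DESeq2, and 0 had an unadjusted p under 0.05. The smallest p in each direction was that of Sftpc, the surfactant protein C gene (log2 fold change -0.55 ± 0.86, adjusted p = 0.83), and of Ager (0.08 ± 0.40, adjusted p = 0.949). The summed level of the list, mostly Scgb1a1 and Napsa, was 7.36 to 9 CPM in control and 7.01 to 8.8 CPM in Nnmt LKO livers. This sum overlapped between the groups, and the part of these genes in the level of Sftpa1 was not tested.

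Sftpa1, Mbl1 and Sftpd stand next to each other on chromosome 14 within 53.4 kb. Sftpa1 ends 15 kb before Mbl1 starts, and 12.6 kb separate the end of Mbl1 from that of Sftpd, which is read from the other strand. Their values did not move as a block, with log2 fold changes of 2.41, -0.33 and 1.33 in that order. Of the 5 tested genes within 500 kb of Sftpa1, these 2 included, 3 were higher and none was called by edgeR (1, Sftpd, had an unadjusted p under 0.05). Mat1a, which makes the methyl donor S-adenosylmethionine in liver and lies at -7.37 kb from the start of Sftpa1, had a log2 fold change of 0.26 ± 0.28 (adjusted p = 0.735, edgeR). Around Mbl2, 6 tested genes lay within 500 kb, with log2 fold changes from -0.34 to 0.93 and a median of -0.01. None of these 6 was called by edgeR either, and 2, Ranbp6 and Prkg1, had an unadjusted p under 0.05. The nearest tested gene, Gldc of glycine breakdown, was at -0.34 ± 0.21 (adjusted p = 0.527).

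**Figure D2:**
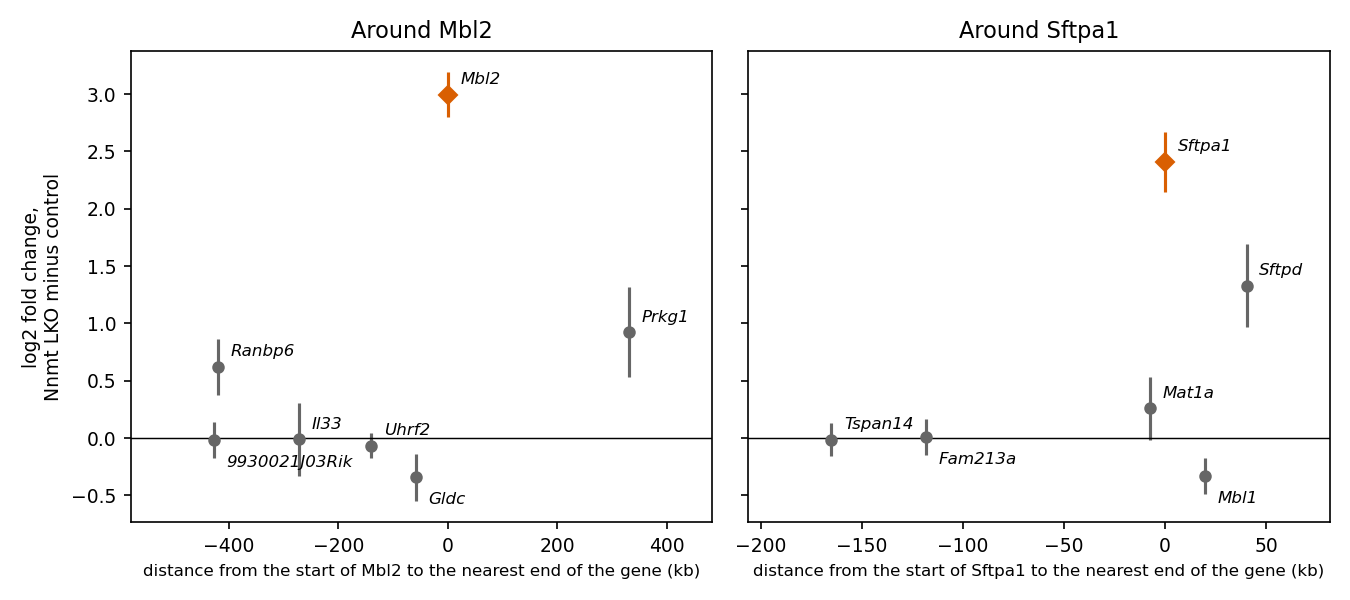
Log2 fold change, Nnmt LKO minus control, with its standard error, of the tested genes within 500 kb of Mbl2 (left) and of Sftpa1 (right), against the distance in kb from the start of that gene to the nearest end of each neighbour. Mbl2 at 2.99 and Sftpa1 at 2.41 are the diamonds, and the neighbours lie between -0.34 and 0.93 on the left and between -0.33 and 1.33 on the right.

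Colec10 (ENSMUSG00000038591, chromosome 15, 54410774 to 54466358, plus strand) and Colec11 (ENSMUSG00000036655, chromosome 12, 28594173 to 28623377, minus strand) encode the collectins CL-L1 and CL-K1, which form joint complexes in blood. Colec10 was at 9.29, 11.1, 13 and 15.2 CPM in control libraries a to d and at 13.7, 13.8, 15.5 and 21.6 CPM in Nnmt LKO libraries a to d. The groups overlapped, and the log2 fold change was 0.41 ± 0.19 (SE, adjusted p = 0.397 in edgeR's test), or 0.24 without Nnmt LKO library d. Colec11 was at 33.8, 34.6, 31.1 and 36.4 CPM in control libraries a to d and at 39.1, 42.9, 37.7 and 36.7 CPM in Nnmt LKO libraries a to d. Here the groups did not overlap, but they met closely, at 36.7 against 36.4 CPM. Its log2 fold change was 0.20 ± 0.10 (SE, adjusted p = 0.418 by edgeR). Colec11 was the steadiest of the family, with a coefficient of variation of 6.54% among control and 7.02% among Nnmt LKO libraries.

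In mouse liver Colec10 and Colec11 are known from hepatic stellate cells, the cells that store retinoids and lay down matrix. The summed level of 8 stellate cell markers was 500 to 555 CPM in control and 610 to 680 CPM in Nnmt LKO livers, without overlap. Dcn and Ecm1 made up most of this sum, and taken singly all markers but Rgs5 overlapped between the groups. All 8 markers had a log2 fold change above 0, by as little as 0.01 for Des, with a median of 0.28 against 0.02 over all 15291 tested genes. None was called by edgeR, and 4 had an unadjusted p under 0.05, as did 12.6% of all tested genes. The smallest p was that of Rgs5 (log2 fold change 0.77 ± 0.17, adjusted p = 0.0907), which DESeq2 called (adjusted p = 0.00345). The part of these markers in the values of Colec10 and Colec11 was not tested.

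Fcna (ENSMUSG00000026938, chromosome 2, 25624666 to 25628030, minus strand) encodes ficolin A, the mouse ficolin of serum, which is known from Kupffer cells and other macrophages. It was at 49.9, 55.9, 34.7 and 55.3 CPM in control libraries a to d and at 46.8, 58.9, 68 and 65.7 CPM in Nnmt LKO libraries a to d. The groups overlapped, with the log2 fold change at 0.29 ± 0.17 (SE, adjusted p = 0.504 in edgeR's test), at 0.39 without Nnmt LKO library a and at 0.16 without control library c. The summed level of 7 Kupffer cell markers also overlapped, from 329 to 616 CPM in control and from 517 to 652 CPM in Nnmt LKO livers. All 7 had a fold change above 0 (median 0.36), none was called by edgeR, and 1, C6, had an unadjusted p under 0.05. Their part in the level of Fcna was not tested. An antisense gene, Fcnaos, overlaps 90 bases of the exons of Fcna.

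Fcnb (ENSMUSG00000026835, chromosome 2, 28076378 to 28084885, minus strand) encodes ficolin B, known from bone marrow and neutrophils. It had 5 counts in Nnmt LKO library c, 3 counts in control library b and 0 in the other 6 libraries. It was the only gene of the family with too few counts to be tested, and a difference was not detectable at this depth. Among the neutrophil markers, Ly6g had 0 counts in every library, while S100a8 (102 to 321 counts), S100a9 (242 to 827 counts) and Retnlg (21 to 119 counts) were detected in all 8. Elane (0 to 19 counts) and Mpo (0 to 32 counts), of the same list, were detected in some libraries only.

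Masp1 (ENSMUSG00000022887, chromosome 16, 23449417 to 23520815, minus strand) encodes MASP-1, which activates MASP-2, and by other splicing MASP-3, which activates factor D of the alternative pathway. Counts per gene do not separate the 4 transcripts annotated there. It was at 46.9, 53.1, 36.5 and 57.2 CPM in control libraries a to d. In Nnmt LKO libraries a to d it was at 50.4, 56.4, 59.5 and 37.4 CPM. Both groups spread over nearly the same range, and the log2 fold change was 0.07 ± 0.17 (SE, adjusted p = 0.894 in edgeR's test), a sign that turned when Nnmt LKO library c (-0.012) or control library c (-0.042) was left out.

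Masp2 (ENSMUSG00000028979, chromosome 4, 148602554 to 148615499, plus strand) encodes MASP-2, the protease that cuts C4 and C2. It was at 110, 133, 82.6 and 94.6 CPM in control libraries a to d and at 68.4, 106, 101 and 91.9 CPM in Nnmt LKO libraries a to d. The groups overlapped, with a log2 fold change of -0.20 ± 0.17 (SE, adjusted p = 0.68 in edgeR's test), or -0.08 without Nnmt LKO library a, -0.05 without control library b and -0.30 without control library c. Its counts are uncertain, because 1817 of its 3307 exon bases overlap exons of Tardbp on the other strand and 52.5% of the 50-base runs of its transcripts also occur in Tardbp. As the strand setting of the counting is not given, reads of these genes may not have been told apart. Tardbp was at 59.1 to 79.1 CPM in control and 54.2 to 82.6 CPM in Nnmt LKO livers, with a log2 fold change of -0.08 ± 0.14.

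**Figure D3:**
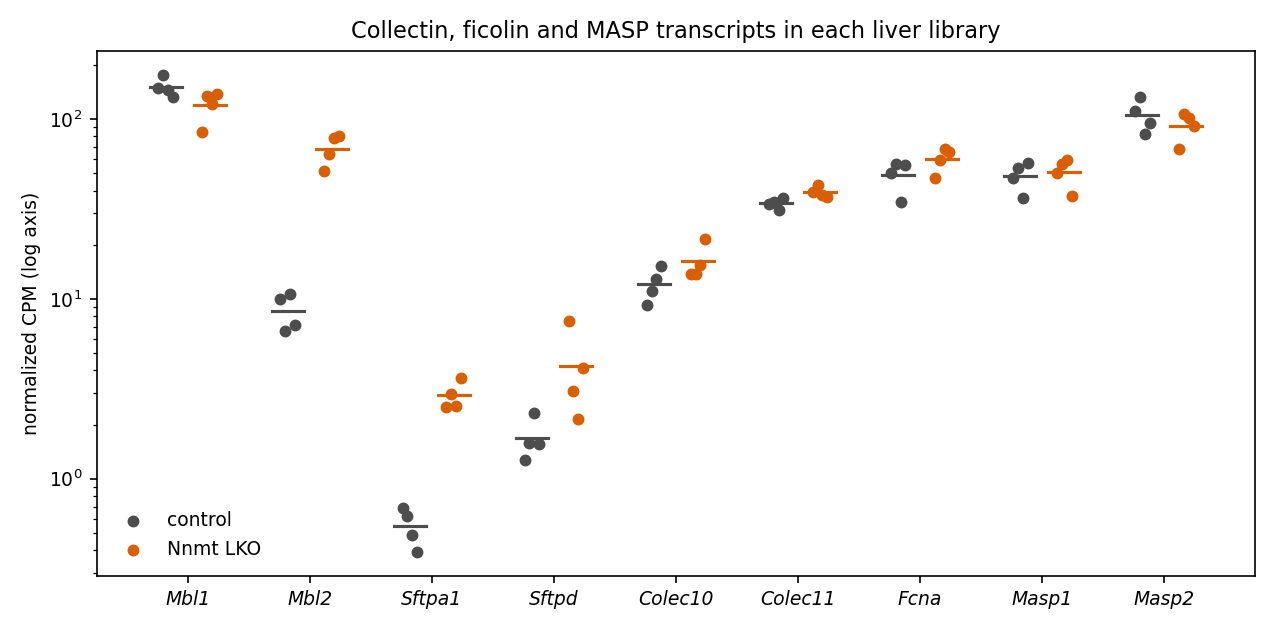
Normalized CPM (log axis) of the 9 tested genes of the family in the 4 control and the 4 Nnmt LKO libraries, with a line at each group's mean. The points of the groups are apart for Mbl2, Sftpa1 and, narrowly, Colec11, and overlap for the other 6 genes. Fcnb, with counts in only 2 libraries, is left out.

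Across the family, 2 of the 9 tested genes were called by edgeR at an adjusted p under 0.05, both higher, where 0.32% of all 15291 tested genes were called (0.183% called higher). These 2 are Mbl2 and Sftpa1, which chose the family, so nothing is read from that count. Of the other 7 tested genes, 0 were called, with adjusted p-values from 0.141 to 0.894 in edgeR's test, and 1, Sftpd, had an unadjusted p under 0.05, as 12.6% of all tested genes did. DESeq2 called Sftpd in addition, where it called 3.35% of all tested genes. Libraries of the groups did not overlap for 3 of the 9, as for 8.16% of all tested genes (3.34% higher and 4.81% lower in Nnmt LKO), and of the 7 genes that did not choose the family this was so for Colec11 alone.

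Per kilobase of exon, Mbl1 was the most abundant of the family in control livers at 95.8 CPM per kb. Fcna at 35.6 and Masp2 at 31.8 followed, with ranges that overlapped each other, then Colec11 at 21, Mbl2 at 7.89, Masp1 at 4.93, Colec10 at 2.65, Sftpd at 0.695 and Sftpa1 at 0.191, each apart from its neighbours in this order. In Nnmt LKO livers Mbl2, at 62.9, came after Mbl1 at 76.2, and its range overlapped those of Mbl1 and of Fcna at 43.6. Masp2 at 27.8 and Colec11 at 24.1 overlapped, as did Masp1 at 5.18 and Colec10 at 3.52. Sftpd at 1.75 overlapped both Colec10 and Sftpa1, the latter at 1.02. Mbl2 thus moved from the fifth to the second place on this scale and Masp1, Colec10, Sftpd and Sftpa1 kept theirs. Exon length here joins the exons of all annotated transcripts of a gene, 9833 bases for the 4 of Masp1. The place of Masp2 rests on counts that are uncertain, as given above.

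The genes with the pattern most like that of Mbl2 over the 8 libraries, by Pearson's r of log2 CPM, were Igf2 (0.974), Sftpa1 (0.973), Pde4d (0.972), Sult2a1 (0.972) and Gzma (0.968). For Sftpa1 they were Gzma (0.985), Zfp346 (0.977), Cyp3a16 (0.975), Mbl2 (0.973) and 2010300C02Rik (0.973). These values are a description over 8 libraries that share the split by genotype. Mbl2 and Sftpa1 were each among the 5 genes most like the other. Both were chosen for higher values in these same Nnmt LKO livers, so nothing is read from their likeness.

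Beyond the lectins and their proteases, 45 of 53 other genes of complement, lectin receptors and lung epithelium were tested. None was called by edgeR, and 1 had an unadjusted p under 0.05. Their log2 fold changes lay from -0.88 to 0.53 with a median of -0.01, against 0.02 over all tested genes. DESeq2 called 1 of them, C6.

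Among the substrates next in line, C4b, which MASP-2 cuts, was at -0.31 ± 0.20 on the log2 scale (adjusted p = 0.561) and C3, the central component of all pathways, at 0.16 ± 0.18 (adjusted p = 0.758), by edgeR's test. Of the 4 genes of this list, C4a and C2 included, 1 was higher, 3 were lower and none was called. C4a and C4b are close copies, between which reads may have been split. In the alternative pathway, Cfp (properdin) was at 0.11 ± 0.12 (adjusted p = 0.736) and Cfb (factor B) at -0.05 ± 0.14 (adjusted p = 0.916), and Cfd (factor D) had too few counts. The C1 complex is the counterpart of lectin and MASP in the classical pathway, and its 4 tested genes had log2 fold changes between 0.04 and 0.09, with C1qa at the smallest p (adjusted p = 0.821).

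The terminal components, which form the membrane attack complex, were 4 higher and 3 lower of 7, with none called by edgeR. C6 had the smallest p, with means of 28.6 CPM (control) and 41.3 CPM (Nnmt LKO) and no overlap of libraries. Its log2 fold change was 0.53 ± 0.11 (adjusted p = 0.0711 by edgeR, 0.000726 by DESeq2 and 0.0475 by edgeR without Nnmt LKO library a), and C6 is also in the list of Kupffer cell markers. In the other direction, C8g was at -0.24 ± 0.21 (adjusted p = 0.676, edgeR).

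Of 11 tested inhibitors, 5 were higher and 6 lower, with none called. Cr1l, a membrane regulator of C3, was at -0.16 ± 0.10 (adjusted p = 0.537 in edgeR's test). Serping1, the C1 inhibitor that also blocks MASPs, was at -0.03 ± 0.17. Among 4 relatives and receptors of collectins, the receptor gene Cd93 was at 0.31 ± 0.21 (adjusted p = 0.589) and the chaperone gene Calr at -0.22 ± 0.13 (adjusted p = 0.52), and the membrane collectin Colec12 at -0.13 ± 0.17. Of 9 membrane lectins of liver cells, 5 were higher and 4 lower, with the smallest p for Mgl2 (-0.88 ± 0.47, adjusted p = 0.469) and Clec1b (0.37 ± 0.22, adjusted p = 0.519). None of these lists held a gene called by edgeR or, C6 apart, by DESeq2.

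**Figure D4:**
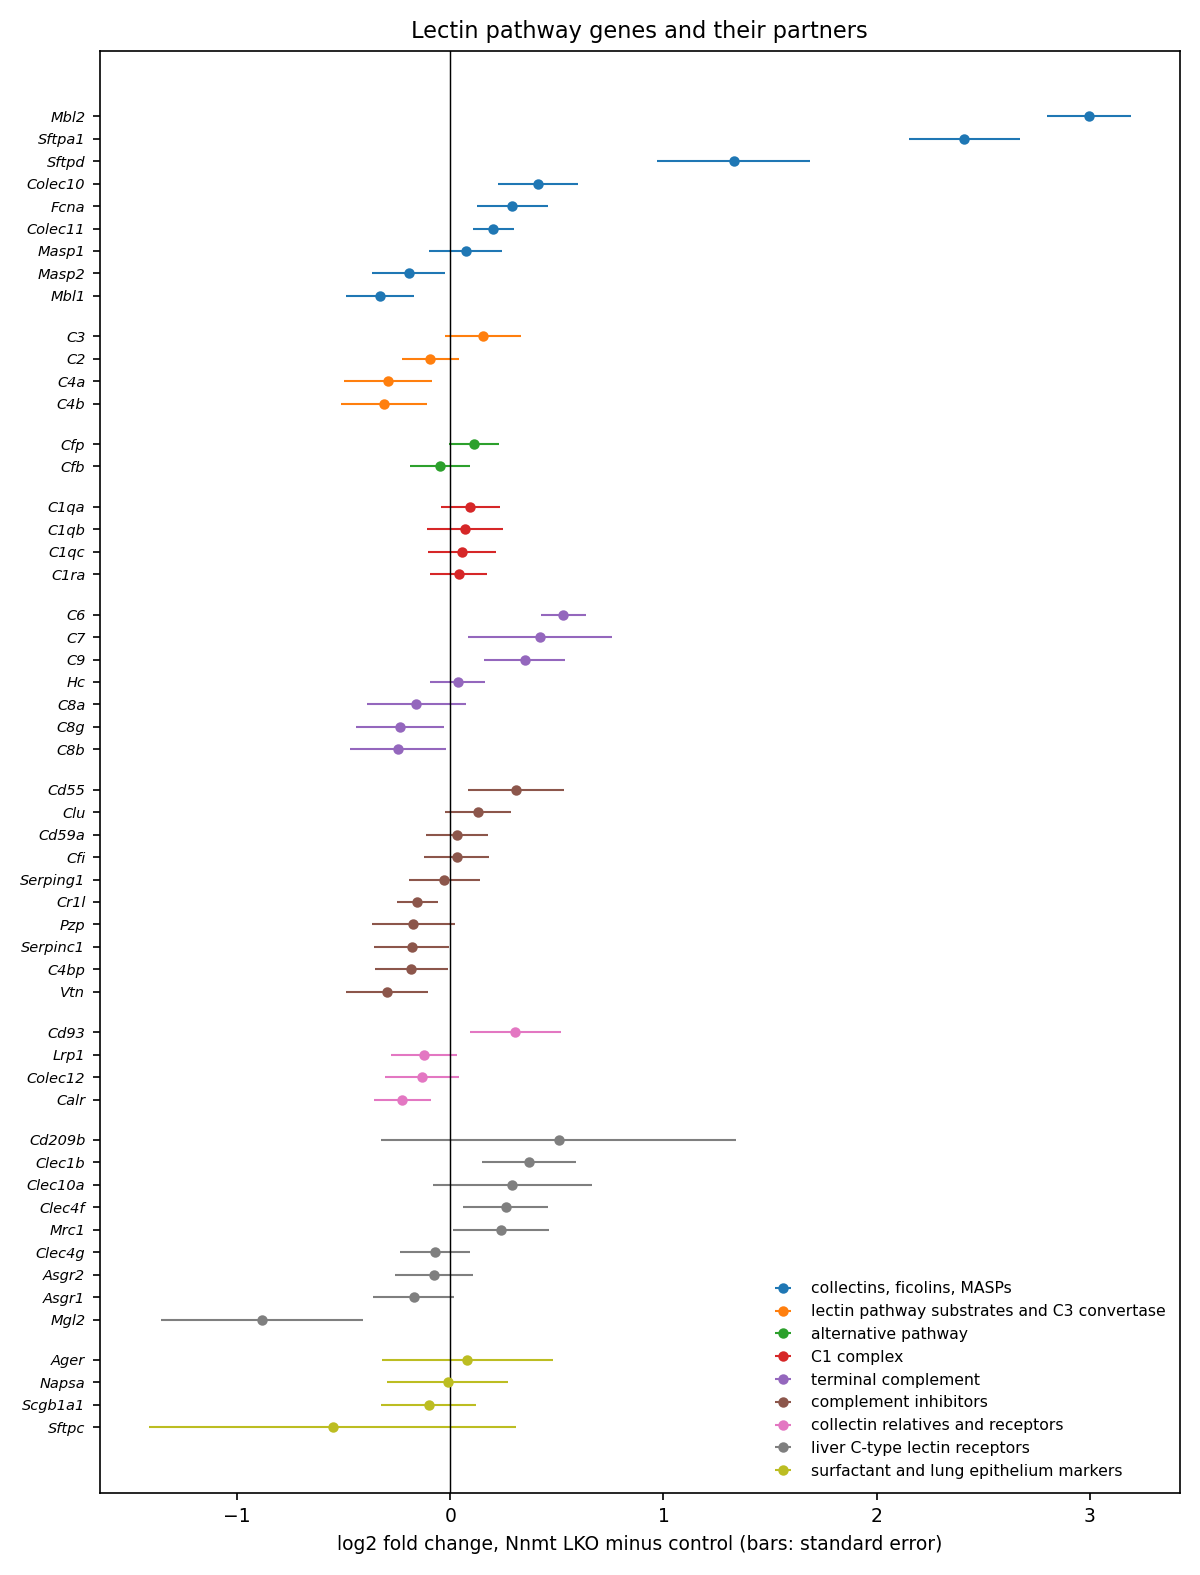
Log2 fold change, Nnmt LKO minus control, with its standard error, of the 9 tested genes of the family and of tested genes of each list of partners, ordered by size within each list. Mbl2 at 2.99, Sftpa1 at 2.41 and Sftpd at 1.33 lie to the right of all others, which are between -0.88 and 0.53.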

How the data were processed

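Liver RNA of 4 Nnmt LKO and 4 control mice was sequenced as paired-end reads on an Illumina HiSeq. The authors used HISAT2 to align and quantify (the submitters' notes add StringTie and the mm10 build), and deposited 1 table of raw counts, whole numbers by gene. The annotation, tool versions and strand setting are not given in the sources used here. On average 330 genes per library had a value of 4 and 213 a value of 2, so a count may not equal a read. The methods and the labels name different library kits. All 8 columns of counts were used. They carry a genotype and no mouse number, so libraries were lettered in column order within a genotype.

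Genes passing edgeR's filterByExpr (minimum count 10), 15291 of 33212, were scaled by TMM and tested with edgeR 4.0.16 (quasi-likelihood, R 4.3.3) with Benjamini-Hochberg adjustment over all of them. Standard errors are those implied by the F statistic. The exact permutation test of Nnmt was two-sided. Called means an adjusted p under 0.05. The tests were first tried on simulated data. Alternatives were DESeq2 1.42.0's size factors and its Wald test (the study's own tool), scaling by library size, no filter, and leaving out each library. Gene positions and exon lengths are from GENCODE M21 (GRCm38). The members and gene lists were chosen with earlier results of these data known. Named are all members, Nnmt, the 5 genes most like Mbl2 and Sftpa1 (Pearson's r of log2 CPM, prior count 2), any called neighbour within 500 kb of either, and of each list any called gene or else the gene of smallest p in each direction. Genes named outside this rule (such as Gldc, Mat1a, Ranbp6, Prkg1, Serping1, Colec12, Tardbp and those of the marker lists) were chosen after their values were seen. The values of 1 gene of the list of inhibitors are not reported here.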

Additional observations from a re-analysis of the deposited data

Results flagged for a closer look

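Values of 22 groups of 4 were searched for an isolated library, of which chance alone gives about 1 in 20, and 1 was found. The TMM factor was 1.21 for Nnmt LKO library a and lay from 0.952 to 0.977 for the rest of that genotype, a gap of 0.903 of the whole range. This library also had the lowest Mbl1, Mbl2, Fcna and Masp2 and the highest Sftpd among Nnmt LKO livers. Sftpa1 and Colec10 were lowest in it too, but close to the next library (2.51 against 2.54 CPM and 13.74 against 13.79 CPM). The part of the scaling in these values was not tested beyond scaling by library size alone. Under it the log2 fold changes were -0.29 for Mbl1, 3.02 for Mbl2, 0.33 for Fcna, -0.14 for Masp2 and 1.44 for Sftpd. Those of Sftpa1 and Colec10 were 2.47 and 0.44.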

How the results depend on the processing

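Mbl2 stayed between 2.90 and 3.11 and Sftpa1 between 2.28 and 2.56 on the log2 scale over 12 alternatives. The count of called genes of the family was 2 in 11 alternatives and 3 with DESeq2's Wald test, the addition being Sftpd, whose adjusted p ran from 0.0123 to 0.42. The 2 are Mbl2 and Sftpa1, which chose the family, so nothing is read from the steadiness of that count. Over all genes, 49 were called (28 higher, 21 lower), and 30 with DESeq2's size factors, 22 with scaling by library size (19 higher, 3 lower), 8 without a filter, 513 with DESeq2's test (217 higher, 296 lower) and 6 to 149 with a library left out, the 149 without Nnmt LKO replicate a. Of the lists of partners 0 genes were called, and 1, C6, with DESeq2's test, its adjusted p running from 0.000726 to 0.257. With a library left out the count was 0 or 1, the latter without Nnmt LKO replicate a. Masp1 ran from -0.042 (without control replicate c) to 0.19 with a library left out, and was -0.012 without Nnmt LKO replicate c. Nnmt stayed between -1.52 and -0.94 over the 12 alternatives and was called only with DESeq2's test, at a log2 fold change of -1.28. No paired analysis was possible because the columns of counts carry no mouse number. Sftpa1, at 33 to 57 counts per control library, and Fcnb are limited by depth.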

Other observations

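Other cell type markers were read in the same livers. Of 8 hepatocyte genes, 4 were higher and 4 lower in Nnmt LKO mice, with log2 fold changes from -0.49 for Serpina1c to 0.33 for Cps1. Their summed level, mostly Alb, was 80110 to 120170 CPM in control and 64973 to 115860 CPM in Nnmt LKO livers. Of 8 genes of sinusoidal endothelium, 3 were higher and 5 lower, between -0.19 and 0.16. All 6 cholangiocyte genes had a fold change above 0, with a median of 0.51, and the summed levels overlapped (52 to 171 CPM in control, 90.7 to 285 CPM in Nnmt LKO). Of the 5 tested genes of neutrophils and monocytes, 3 were higher and 2 lower. All 6 lymphocyte genes had a fold change above 0, with a median of 0.54, at summed levels of 4.82 to 9.47 CPM in control and 8.57 to 10.3 CPM in Nnmt LKO livers. None of these genes was called by edgeR, and DESeq2 called Cd3g alone, a T cell receptor component (log2 fold change 1.18, adjusted p = 0.0419). The markers Epcam of cholangiocytes and Cd3g had p-values under 0.05 before adjustment by edgeR.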
